A study of Zea mays with 8 samples.

Results

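In mitotic-stage anthers of the maize mutant hda108, 100 genes had a far lower RNA level than in wild type (WT), while after meiosis the same genes lay within a 2-fold difference or so of WT. They were chosen by their own values, out of the 39604 genes measured. The choice took genes with a WT mitotic level from 20 to below 1000 FPKM (fragment counts corrected for transcript length and sequencing depth). It required a mitotic difference of at most -2.5, a post-meiotic difference above -1, both hda108 minus WT on the scale log2(FPKM + 1), and a difference between the WT stages from -2 to 2. MicroRNA precursors and 3 genes were left out by name. These measures chose the members, so they are given below as a description, without a test.

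HDA108 encodes a histone deacetylase, an enzyme that removes acetyl groups from the tails of histones. Loss of acetyl groups usually goes with tighter chromatin and lower transcription, and maize lines with altered deacetylases have defects in several organs. The anther is the pollen-bearing organ of the tassel. After meiosis its microspores divide by mitosis to form pollen, while the tapetum, the innermost wall layer, feeds them and then degenerates. In that phase the developing pollen builds up microtubules, wall-loosening proteins, sugars and stored RNA.

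Total RNA, depleted of ribosomal RNA, came from field-grown maize (Zea mays) and was sequenced in 8 strand-specific libraries. WT and plants homozygous for the mutation (hda108/hda108) were each sampled after meiosis and at the mitotic stage, with 2 libraries per group and each library pooled over anthers of several tassels. Where the mutation lies and which line carries it are not given in the labels. The deposited values hold 1 FPKM per gene and group, so the spread between replicates is unknown, every difference below lacks a replicate check, and higher and lower describe these 4 values alone. Depth is unknown. HDA108 itself (GRMZM2G136067) had 12.3 FPKM in WT against 4.10 FPKM in hda108 after meiosis, then 6.43 against 4.30 FPKM at the mitotic stage.

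The sums of all FPKM differed between groups and touch every value below. After meiosis they were 1069800 in WT against 701133 in hda108, and at the mitotic stage 1284185 against 505427. When every group was rescaled to a sum of 1000000, the median difference of all genes moved from -0.02 to 1.05 at the mitotic stage and from -0.03 to 0.50 after meiosis. The 100 members then had a median mitotic difference of -1.57 in place of -2.82, and 5 of them had a difference of at most -2.5. Relative to the median of all genes they stood at -2.62 after rescaling and at -2.80 before it. Only 3 of the 100 still met the rule after rescaling, namely GRMZM2G389301, GRMZM2G431156 and GRMZM2G301909.

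Among markers of the cell types in an anther, those of pollen were mostly below WT in these bulk samples, and the other lists were mixed. Markers were matched by symbol, so some may share only a symbol. Of 12 tested pollen markers, 12 were below WT in hda108 at both stages, where 50.7% of all tested genes were below WT at the mitotic stage. At that stage 8 of the 12 were lower by at least 2 on the log2 scale, against 8.12% of all tested genes. After rescaling, 10 of the 12 were below WT and 2 were lower by at least 2, against 20.2% and 2.47% of all tested genes. After meiosis 9 were lower by at least 2, against 4.47% of all tested genes. These shares are not matched for level, and low values in hda108 were commoner among genes abundant in WT. Of genes at 500 to 1000 FPKM in WT mitotic anthers that met the WT stage condition, 46.5% had a mitotic difference of at most -2.5. The part of level in the pollen marker counts was not tested. The summed level of the 13 matched pollen IDs was 18688 FPKM in WT against 3814 FPKM in hda108 after meiosis, then 30175 against 4978 FPKM at the mitotic stage. The 5 tapetum IDs, 4 of them tested, summed to 138 and 85.2 FPKM after meiosis and to 88.0 and 55.9 FPKM at the mitotic stage. Of the 4, 3 were below WT at both stages, and ms23, a regulator of tapetum fate, was lower by at least 2 at the mitotic stage, with 23.7 and 3.004 FPKM. The other, ms8, was higher by at least 2 after meiosis, with 0.608 and 7.02 FPKM, against 1.68% of all tested genes. The 11 green-tissue IDs, 10 of them tested, summed to 2536 and 2421 FPKM and then to 764 and 619 FPKM. After rescaling, the median mitotic difference was 0.25 for the tapetum list, where it had been -0.75, and 1.20 for the green-tissue list, where it had been 0.03. No tested marker was listed at 0 in any group. The part of these shifts in the members' values was not tested, and in bulk RNA fewer cells of a type and less RNA per cell cannot be told apart.

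Across the members the hda108 mitotic value stood apart from the other 3 groups. The median level was 67.5 FPKM in WT against 45.8 FPKM in hda108 after meiosis, and 78.8 against 10.2 FPKM at the mitotic stage. The hda108 mitotic value was the lowest of the 4 in 98 members, and none of the members had its highest value there. The highest value was in WT mitotic anthers for 67 members, in WT post-meiotic anthers for 31 and in hda108 post-meiotic anthers for 2. The fold difference at the mitotic stage ran from 5.83-fold to 25.3-fold lower, with a median of 7.90-fold. A difference of at most -2.5 was found in 4.98% of all 24360 genes tested and in 12.4% of the 5951 genes that met the level and WT stage conditions. No member was listed at 0 in any group.

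**Figure D1:**
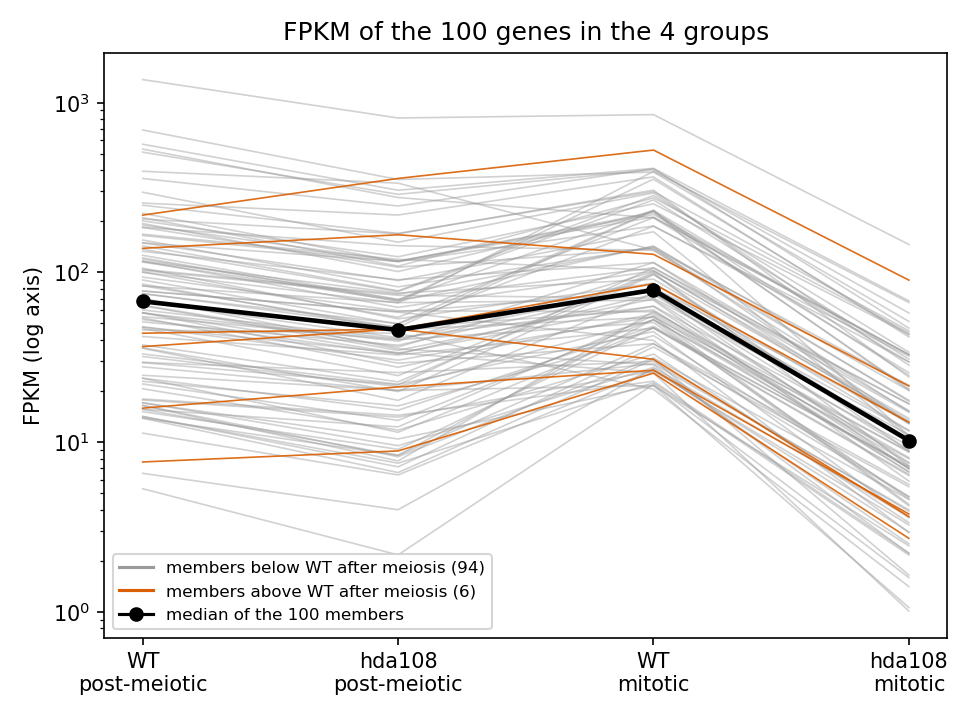
FPKM on a log axis for each of the 100 genes (1 line each) in both genotypes after meiosis and then at the mitotic stage, 1 pooled value per group, with the 6 genes above WT after meiosis in orange. The black line is the median of the members, which runs from 67.5 and 45.8 to 78.8 and then to 10.2 FPKM.

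After meiosis most members were slightly below WT, as were most genes of their range. Of the 100, 94 were below WT in hda108 post-meiotic anthers, where 52.0% of all tested genes and 76.5% of genes with the same WT range were below WT, and the rule put the floor at -1. The median post-meiotic difference was -0.67, a median of 1.63-fold lower. By size, 41 members lay between -1 and -0.75, 29 between -0.75 and -0.5, 20 between -0.5 and -0.25 and 4 between -0.25 and 0, and 6 were above WT. After rescaling, 59 were below and 41 above WT, so the side of WT on which a member lay often depends on the scaling. Relative to the post-meiotic median of all genes the members stood at -0.64 before rescaling and at -0.59 after it. The name "lowered only at the mitotic stage" thus describes a difference of degree.

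They were also a minority of the genes that were low at the mitotic stage. Of the 737 genes with the same WT range and a mitotic difference of at most -2.5, 636 had a post-meiotic difference of at most -1. One of these, the abscisic acid synthesis gene vp14 (GRMZM2G014392), was left out by name, and the other 635, or 86.2%, are called lower at both stages here. The 100 members made up 13.6%. The post-meiotic difference of the 737 genes ran without a gap across the boundary, with a median of -2.12, a 75th percentile of -1.39 and a 90th percentile of -0.85. Just inside it lay GRMZM2G180490 at -0.9965, and just outside it GRMZM2G115839 at -1.01. Another gene left out by name, the flavonoid glucosyltransferase gene bz1 (GRMZM2G165390), met every numeric condition, with 28.1 and 14.5 FPKM in WT and hda108 after meiosis and 35.2 and 2.11 FPKM at the mitotic stage.

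**Figure D2:**
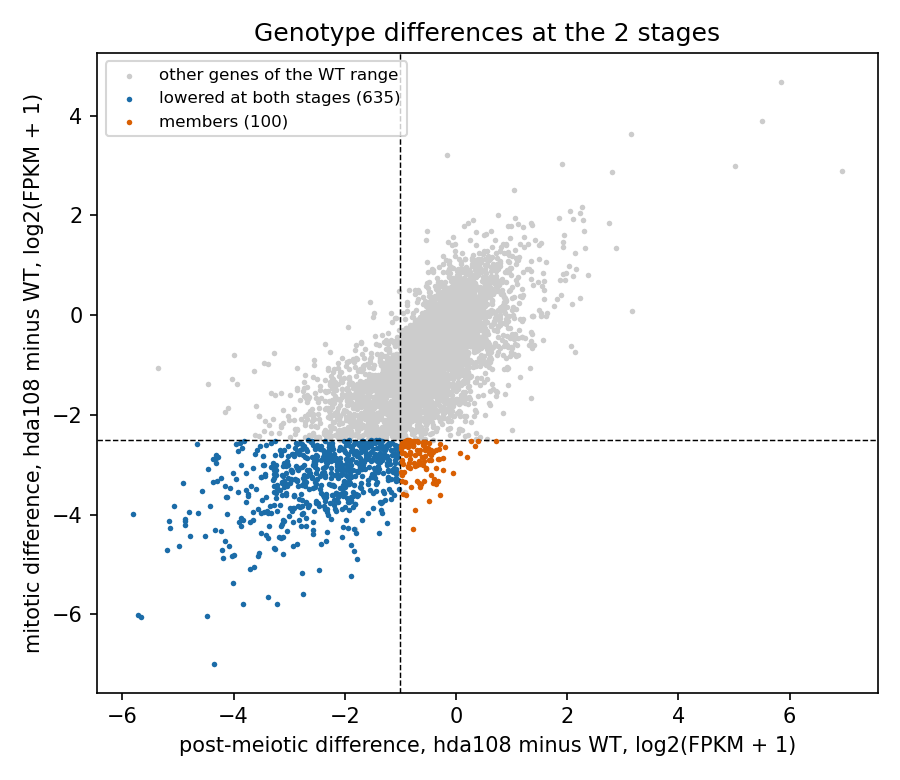
Each point is 1 of the 5951 genes with a WT mitotic level from 20 to below 1000 FPKM and a WT stage difference from -2 to 2. The x axis is the post-meiotic and the y axis the mitotic difference, hda108 minus WT in log2(FPKM + 1), and dashed lines mark -1 and -2.5. The 100 members (orange) adjoin the 635 genes lower at both stages (blue) with no gap between them.

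Names were available for 6 members, and 1 of them is a gene of the cytoskeleton. Beta-tubulin tub4 (GRMZM2G066191, chromosome 5, 14869912 to 14874139, B73 RefGen_v3) encodes a subunit of microtubules, the polymers of the mitotic spindle. It had 100.3 FPKM in WT against 66.1 FPKM in hda108 post-meiotic anthers. At the mitotic stage the gene had 394 FPKM in WT against 66.4 FPKM in hda108, 5.93-fold lower. WT thus held 3.93-fold more tub4 RNA at the mitotic stage than after meiosis, while the values of hda108 at the stages were alike. tub4 lay close to the upper WT stage limit of the rule, at 1.96.

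The other named tubulin genes, gathered by symbol after the members were known, were mostly below WT too. Of 12 tested tubulin IDs, 10 were below WT at the mitotic stage and 4 passed a difference of -2, against 50.7% and 8.12% of all tested genes. After rescaling 9 were below WT, 0 passed -2, and the family median was -0.39 in place of -1.71, where the median of all genes is 1.05. The 12 IDs include tub4, which the rule chose for its low mitotic value. All tested genes had a median of 6.78 FPKM in WT mitotic anthers, so the shares are not matched for level. The beta-tubulin gene tub3 (GRMZM2G108766) had 204 and 55.2 FPKM in WT and hda108 after meiosis and 539 and 72.0 FPKM at the mitotic stage. The alpha-tubulin gene tua6 (GRMZM2G083243) had 130.3 and 41.0 FPKM, then 254 and 37.9 FPKM. Both were also low after meiosis, at -1.87 and -1.64, which kept them outside the rule, unlike tub4 at -0.59. tua4 (GRMZM2G152466), another alpha-tubulin gene, had 872 and 446 FPKM, then 1201 and 257 FPKM. It was above the level range and, at -2.22, also missed the mitotic threshold. At the other end, tub6 (GRMZM2G071790) had 15.6 and 30.4 FPKM, then 22.4 and 16.4 FPKM, and 2 gamma-tubulin IDs, for the tubulin that starts new microtubules, had mitotic differences of 0.25 and 0.33.

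Cell wall loosening is represented by expA4 (GRMZM2G445169, chromosome 5, 2275247 to 2277812), an alpha-expansin gene. Expansins let wall polymers slide past each other during growth, without cutting them. After meiosis its levels were 83.2 FPKM in WT against 66.4 FPKM in hda108, close to each other. At the mitotic stage they were 68.6 FPKM in WT against 5.89 FPKM in hda108, 11.7-fold lower, the largest mitotic fold among the 6 named members. In hda108 the level was 11.3-fold lower at the mitotic stage than after meiosis, against a WT that changed little.

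Other expansin genes did not share a single pattern across the stages. Of 12 tested expansin IDs, expA4 among them, 10 were below WT at the mitotic stage, against 50.7% of all tested genes. After rescaling 6 were below WT, against 20.2% of all tested genes. A mitotic difference of -2 was passed by 4, or by 1 after rescaling, against 8.12% and 2.47% of all tested genes. The mitotic family median was -1.53, or -0.53 after rescaling, where the median of all genes is 1.05. After meiosis 4 were lower and 1 higher by at least 2, against 4.47% and 1.68% of all tested genes. The beta-expansin gene EXPB10 (GRMZM2G127106), of the pollen allergen type, had 1421 and 178 FPKM after meiosis and 2643 and 474 FPKM at the mitotic stage, low at both. EXPB11 (GRMZM2G089699), like EXPB10 also on the pollen marker list, had a post-meiotic difference of -2.73 and a mitotic one of -2.46. EXPB1B (GRMZM2G072886) was low at both stages too, with 2665 and 442 FPKM, then 3959 and 493 FPKM. expA3 (GRMZM2G074585) resembled expA4 in direction at a far lower level, with 0.487 and 0.194 FPKM, then 3.63 and 0.376 FPKM. EXPA5 (GRMZM2G361064), another alpha-expansin gene, had 17.3 and 31.9 FPKM, then 75.1 and 56.1 FPKM, above WT at the first stage and below it at the second, where it turned to 0.91 after rescaling. The beta-expansin gene expB6 was above WT at both stages, by 2.52 and 1.44.

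Proteolysis is represented by mir1 (GRMZM2G150276, chromosome 6, 89072246 to 89074183), which despite its symbol is no microRNA gene. It encodes a cysteine protease known from maize leaves that resist caterpillar feeding. It had 57.5 FPKM in WT against 39.3 FPKM in hda108 post-meiotic anthers. At the mitotic stage it had 114 FPKM in WT against 12.8 FPKM in hda108, 8.92-fold lower. Its neighbour mir2 (GRMZM2G150256) starts on the same chromosome with a gap of 1054 bp between the gene models. mir2 had 19.5 and 46.1 FPKM after meiosis and 34.7 and 32.7 FPKM at the mitotic stage, a mitotic difference of -0.08. At the mitotic stage the genotypes thus differed in mir1 far more than in mir2 on the deposited scale. After rescaling, the difference was -1.77 for mir1 and 1.23 for mir2, so mir2 was then above WT. No source used here says how reads shared between related copies were counted, so the values of both are uncertain. Of the other cysteine protease genes, mir3 had a mitotic difference of 0.07, ccp2, also named see1, of -0.17 and ccp1 of 0.52. The mitotic median of the 5 genes is the value of mir2 on both scales.

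Signalling families supplied a pair of named members. TIFY10 (GRMZM2G145458, chromosome 1, 244892946 to 244893692) belongs to the TIFY family, which includes the JAZ repressors of jasmonate responses. It had 102.7 and 73.3 FPKM in WT and hda108 after meiosis, and 70.6 and 11.03 FPKM at the mitotic stage, 6.40-fold lower. PP2C16 (GRMZM2G082487, chromosome 2, 176186304 to 176187719) belongs to the type 2C protein phosphatases, some of which hold abscisic acid signalling in check. It had 90.2 and 49.7 FPKM after meiosis, and 187 and 32.1 FPKM at the mitotic stage, 5.84-fold lower and second nearest to the mitotic threshold, at -2.51.

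Relatives of these genes varied. Of 21 tested TIFY genes, 2 passed a difference of -2 at the mitotic stage, TIFY10 at -2.57 and TIFY29 (GRMZM2G036288) at -2.17, a share near the 8.12% of all tested genes. The family median was -0.43, which turned to 0.88 after rescaling. TIFY29 was also low after meiosis, with 358 and 103 FPKM and then 471 and 103.8 FPKM. TIFY4 (GRMZM2G445634), the most abundant of them, had 587 and 798 FPKM after meiosis and 540.1 and 225 FPKM at the mitotic stage. TIFY9 (GRMZM2G145412), 6317 bp from TIFY10, was above WT at both stages, with 29.7 and 62.9 FPKM and then 6.71 and 13.1 FPKM. In the family 13 genes were below and 8 above WT at the mitotic stage, against 50.7% of all tested genes below. After meiosis 9 were below and 12 above, against 52.0% below. Among 22 tested PP2C genes, 4 passed -2 at the mitotic stage, PP2C16 among them, against 8.12% of all tested genes. After rescaling 0 passed -2, against 2.47% of all tested genes. The family median of -0.81 turned to 0.31 after rescaling, where the median of all genes is 1.05. PP2C3 (GRMZM2G059453) resembled PP2C16, with 64.5 and 41.5 FPKM and then 105.7 and 19.2 FPKM, a mitotic difference of -2.40 that missed the rule. PP2C12 (GRMZM5G818101) was similar at a lower level, with 43.3 and 26.3 FPKM and then 32.6 and 5.73 FPKM. PP2C15 (GRMZM2G300125) had the largest mitotic difference of the family, -2.79, and was also low after meiosis, at -1.84. At the mitotic stage 17 of the 22 PP2C genes were below and 5 above WT, against 50.7% of all tested genes below. The highest were PP2C29 (GRMZM2G053722) at 1.28 and PP2C23 (GRMZM2G360455) at 1.07.

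The sixth named member, rfz1 (GRMZM6G949474), is uncertain as a gene. Its ID had 105.9 and 53.2 FPKM after meiosis and 86.4 and 10.3 FPKM at the mitotic stage. The same locus and the same name also belong to GRMZM2G084812, which had 19.7 and 22.9 FPKM and then 23.2 and 13.3 FPKM. No source used here says how the reads of the locus were divided between the IDs. In all, 5 members have a locus that overlaps another ID, and GRMZM2G011951 is 1 ID for 2 RefSeq genes.

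**Figure D3:**
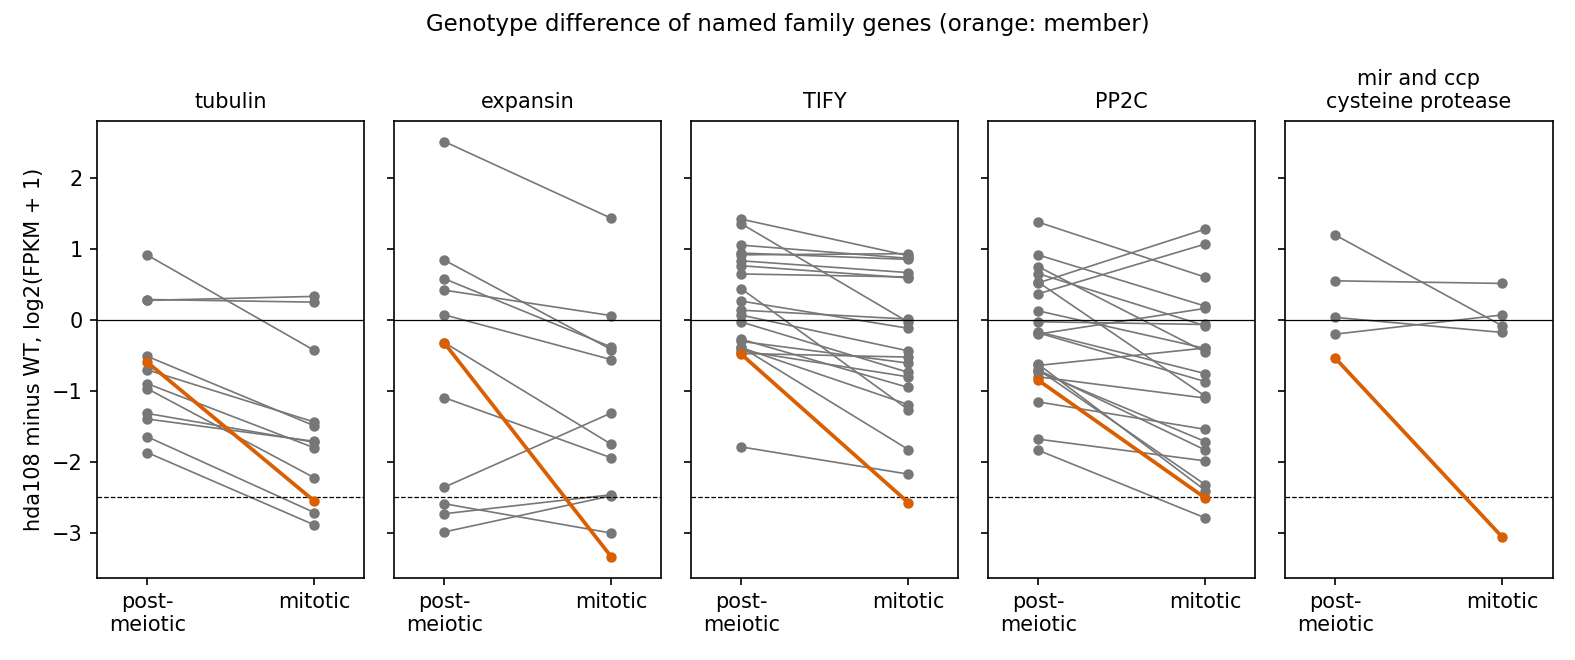
Genotype difference (hda108 minus WT, log2(FPKM + 1)) after meiosis and at the mitotic stage for each tested gene of 5 named families, 1 line per gene, with the member of each family in orange and a dashed line at -2.5. The orange lines of tub4, expA4, TIFY10, PP2C16 and mir1 fall from between -0.85 and -0.32 to between -3.34 and -2.51.

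Of the members, 66 carry only a numbered locus in RefSeq and 28 have no match there, so the genes that follow are given by ID with no role. The largest mitotic difference was that of GRMZM2G389301 (chromosome 6, 155933101 to 155934135), with 119 and 69.1 FPKM in WT and hda108 after meiosis and 232 and 10.9 FPKM at the mitotic stage, 21.3-fold lower. GRMZM2G431156 had 149 and 89.6 FPKM, then 174 and 10.7 FPKM, 16.3-fold lower. These were the members with the most abundant RNA in WT among the 3 with the largest differences. The third, GRMZM2G035278, had 47.6 and 33.5 FPKM, then 25.5 and 1.01 FPKM, 25.3-fold lower as a ratio, the largest ratio of all members. GRMZM2G413897 kept close to WT after meiosis, with 206 and 169 FPKM, and differed 12.7-fold at the mitotic stage, with 305 and 24.1 FPKM.

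In all, 33 members had a mitotic difference of at most -3. Among them, GRMZM2G148904 went to 1.06 FPKM in hda108 from 21.5 FPKM in WT, and GRMZM2G301909 to 1.65 FPKM from 30.7 FPKM, 20.3-fold and 18.6-fold lower. GRMZM2G076972 had 99.4 and 7.24 FPKM, GRMZM2G156620 230.5 and 20.2 FPKM and GRMZM2G353444 54.8 and 4.30 FPKM in WT and hda108 mitotic anthers. GRMZM2G018820, the tenth by size, had 225 and 20.6 FPKM there and 149 and 116 FPKM after meiosis. Levels in hda108 mitotic anthers were under 10 FPKM in 49 members, against 13 members in hda108 and 3 in WT post-meiotic anthers.

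The most abundant member, GRMZM2G139786 (chromosome 3, 127533188 to 127534038), had 1369 FPKM in WT against 813 FPKM in hda108 post-meiotic anthers. At the mitotic stage it had 851 and 146 FPKM, 5.83-fold lower, the smallest ratio of all members. GRMZM2G011951 had 526 FPKM in WT against 90.03 FPKM in hda108 mitotic anthers, and GRMZM2G135022 had 410.4 and 67.9 FPKM. GRMZM2G323888 had 358 and 246 FPKM after meiosis, then 409 and 46.9 FPKM. GRMZM2G028413, whose locus overlaps another ID, had 511 and 288 FPKM, then 402 and 57.6 FPKM. In these abundant members hda108 mitotic RNA was still far above 6.79 FPKM, the median of all tested genes in that group. GRMZM5G819464 had 691 and 353 FPKM, then 389.8 and 51.4 FPKM. GRMZM2G337330 had 256 and 218 FPKM, then 365 and 41.7 FPKM. GRMZM2G173315 had 115 and 68.2 FPKM, then 355 and 42.8 FPKM, with the longest locus among members that overlap no other ID, 5948 bp.

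A further 6 members were above WT after meiosis and below it at the mitotic stage, where 47.8% of all tested genes, and 23.5% of genes with the same WT range, were above WT after meiosis. GRMZM2G011951 (chromosome 5, 204376891 to 204380038) had the largest such gap, with 218 FPKM in WT against 358 FPKM in hda108 after meiosis, 1.65-fold higher, and then 526 and 90.03 FPKM, 5.84-fold lower. GRMZM2G123212 had 15.8 and 21.1 FPKM, then 26.5 and 3.77 FPKM. GRMZM2G064753 had 36.5 and 46.5 FPKM, then 85.7 and 13.1 FPKM. In each of these genes WT was higher at the mitotic stage and hda108 was lower there than after meiosis. GRMZM2G042008 had 139 and 167 FPKM, then 128 and 21.4 FPKM. GRMZM5G801330, with a locus of only 184 bp, had 7.63 and 8.87 FPKM, then 25.5 and 2.71 FPKM, and GRMZM2G171912 had 43.8 and 46.3 FPKM, then 30.7 and 3.64 FPKM. The last of these differed from WT by 0.08 after meiosis, the smallest gap of the 6.

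How WT itself differed between the stages divided the members. In WT, 25 members were higher at the mitotic stage by more than 1, against 5.76% of all tested genes, 42 were higher by up to 1, 29 were lower by up to 1 and 4 were lower by more than 1. The 25 had a median mitotic genotype difference of -2.77 and the 4 of -3.07. Both ends were limited by the rule, which allowed WT differences from -2 to 2. Its level range and its mitotic difference also used the WT mitotic value, which favours genes high in WT mitotic anthers. All tested genes are not matched for these conditions, so the excess over 5.76% cannot be told apart from the selection. In the 25 the median difference between the stages in hda108 was -0.71, and in the 4 it was -3.84. For the former the mutant therefore held a similar or lower level where WT held more, and for the latter the mutant had a larger deficit on top of a lower WT.

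Examples show the range. GRMZM2G144936 had 6.54 FPKM in WT post-meiotic and 27.1 FPKM in WT mitotic anthers, 4.15-fold more, and 3.99 and 2.51 FPKM in hda108. GRMZM2G110558 had 29.4 and 106.5 FPKM in WT, and 21.8 and 15.0 FPKM in hda108. GRMZM2G076435, with 16.4 and 58.9 FPKM in WT, had 7.74 and 8.74 FPKM in hda108, and with tub4 it was 1 of 2 members that were not lower at the mitotic stage in hda108. The genes that WT held at a higher level after meiosis included GRMZM2G078862, with 395 and 136 FPKM in WT post-meiotic and mitotic anthers and 336 and 17.6 FPKM in hda108. GRMZM2G138067 had 533 and 209.7 FPKM in WT, and 276 and 25.7 FPKM in hda108. GRMZM2G121333 had 45.7 and 20.5 FPKM in WT, and 43.8 and 1.41 FPKM in hda108, with almost the same level in both genotypes after meiosis. GRMZM2G153359 had 70.4 and 28.6 FPKM in WT, and 35.5 and 2.21 FPKM in hda108.

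Between the stages of hda108 itself, 98 members were lower at the mitotic stage and 81 were lower by at least 1, against 15.6% of all tested genes lower by at least 1. The rule bounds the other 3 contrasts of the same 4 values, which together limit this one and favour low values. The difference thus follows at least in part from the selection, and how much of it does was not tested. The median was -1.91 over the members, -0.32 over the 635 genes lower at both stages and -0.27 over all tested genes.

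Ranks within a group do not depend on the scaling between groups, so the members were also placed by their expression rank among the 24360 tested genes. Their median percentile was 89.4 in WT against 88.5 in hda108 after meiosis, and 91.0 against 61.3 at the mitotic stage. The genes lower at both stages had medians of 89.4, 62.5, 93.3 and 60.2 in the same order. The 3159 genes of the same WT range with a mitotic difference between -1 and 1 had medians of 85.0, 87.6, 83.5 and 88.2. In hda108 post-meiotic anthers the members' median rank was near that of the genes with a mitotic difference between -1 and 1. In hda108 mitotic anthers it was near that of the genes lower at both stages. Both likenesses are what the rule selected, since it bounded the members' differences at both stages. The genes lower at both stages were likewise set apart by a post-meiotic difference of at most -1. Only the genes with a mitotic difference between -1 and 1 were not chosen by their post-meiotic differences, which ran from -4.00 to 3.17. As shares of all FPKM the members held 1.13% in WT against 1.11% in hda108 after meiosis, and 1.03% against 0.345% at the mitotic stage.

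**Figure D4:**
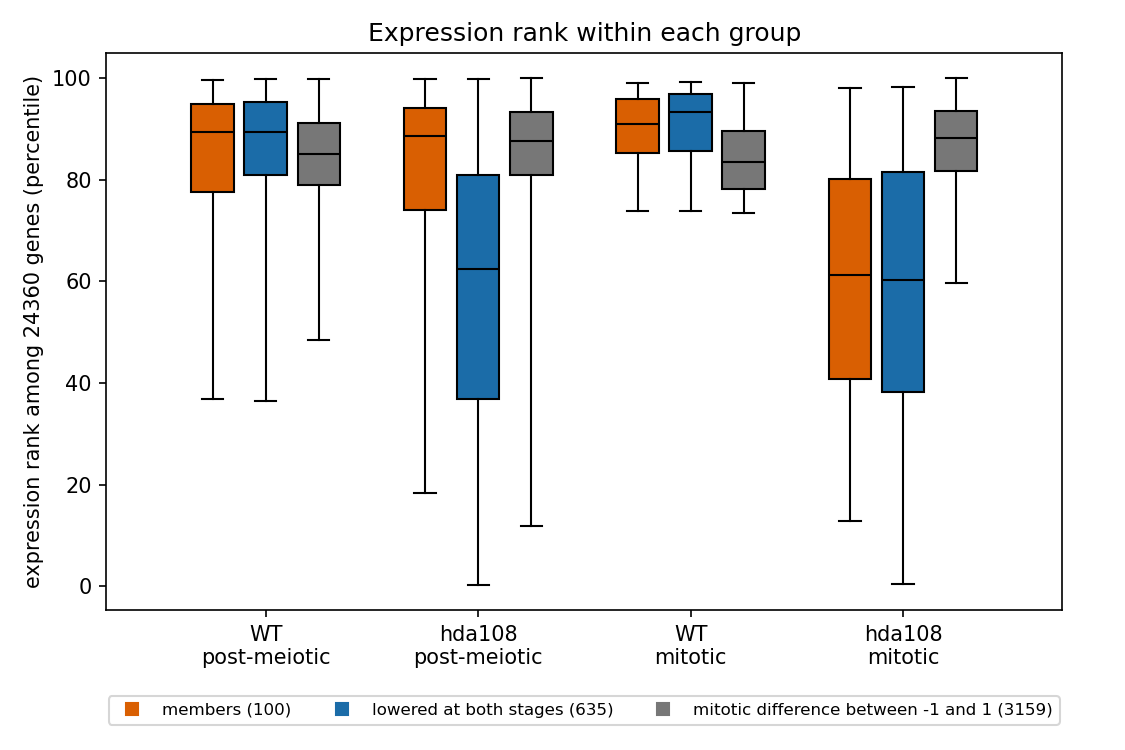
Expression rank within each group, as a percentile of the 24360 tested genes, for the 100 members (orange), the 635 genes lower at both stages (blue) and the 3159 genes with a mitotic difference between -1 and 1 (grey). Boxes span the quartiles, the line is the median and whiskers reach the lowest and highest gene. The member medians are 89.4, 88.5, 91.0 and 61.3.

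Genes abundant in WT were low in hda108 more often. Of genes with 20 to 50 FPKM in WT mitotic anthers, 6.72% had a mitotic difference of at most -2.5, and the share was 10.9% at 50 to 100 FPKM, 20.03% at 100 to 200 FPKM, 29.8% at 200 to 500 FPKM and 46.5% at 500 to 1000 FPKM. The members followed this up to 500 FPKM, with 0.955%, 2.01%, 2.21% and 4.67% of the genes of each level. At 500 to 1000 FPKM only 2 genes, or 1.27%, were members, whereas 71 genes were lower at both stages. Of the members, 42 had at least 100 FPKM and 30 had under 50 FPKM in WT mitotic anthers.

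**Figure D5:**
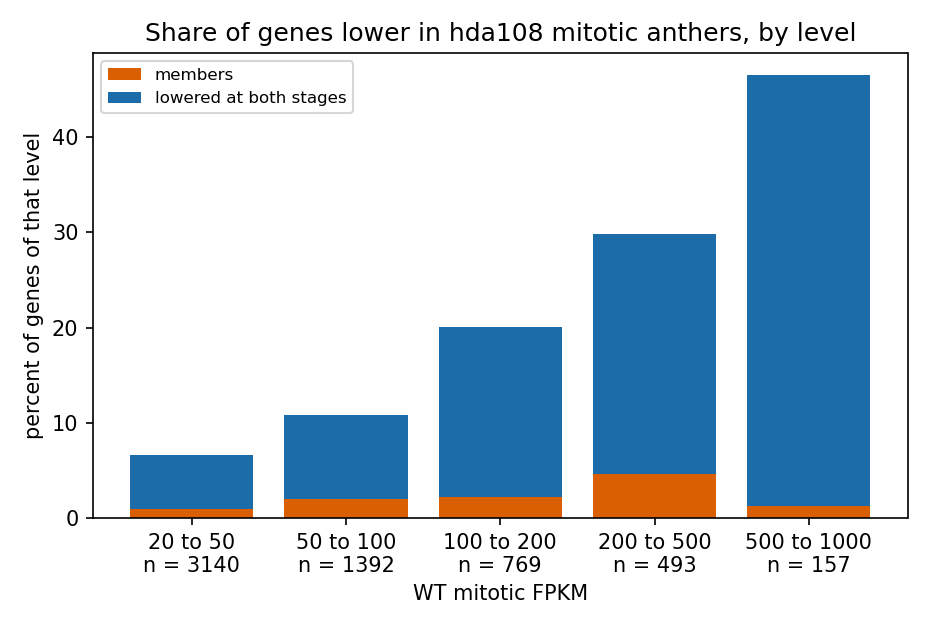
Percent of the genes of each WT mitotic level (n below each bar) that had a mitotic difference of at most -2.5, split into members (orange) and genes lower at both stages (blue). The members' share goes from 0.955% at 20 to 50 FPKM to 4.67% at 200 to 500 FPKM and is 1.27% at 500 to 1000 FPKM.

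Gene size and position were not part of the rule. Over the 95 members with a locus of their own, the median genomic span, introns included, was 1629 bp, and 62 of them, or 65.3%, spanned under 2000 bp. The genes lower at both stages had a median of 1884.5 bp, with 55.3% under 2000 bp. The genes with a mitotic difference between -1 and 1 had a median of 3788.5 bp, with 17.6% under 2000 bp, and all tested genes 3243 bp and 30.3%. Short loci were thus common among low genes of both kinds. These sets also differ in level, and whether level or length goes with the difference was not tested.

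The members lay on all 10 chromosomes. Chromosome 5 held 19 and chromosome 3 held 17, where 11.9% and 10.7% of all tested genes lie, and chromosome 10 held 1, where 6.49% lie. Among the genes lower at both stages, 12.9% were on chromosome 5, 8.82% on chromosome 3 and 5.98% on chromosome 10. These shares are descriptive and were not tested.

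Few members lay near each other. Within 100 kb there were 3 pairs. AC190933.3_FG004 and GRMZM2G140032 on chromosome 3 were 30.1 kb apart, with 33.0 and 3.35 FPKM in the WT and hda108 mitotic anthers for the former and 210.4 and 32.7 FPKM for the latter. GRMZM2G148904 and GRMZM2G051522 on chromosome 8 were 81.7 kb apart, and GRMZM2G051522 had 27.5 and 3.62 FPKM. GRMZM2G028413 and GRMZM2G301909 on chromosome 9 were 55.1 kb apart, with the levels given above. Over the 199 nearest tested neighbours of all members, the median mitotic difference was -0.16, against -0.02 for all tested genes, and 17, or 8.54%, were at or below -2.5, 4 of them members. Without the members it was 13 of 195, or 6.67%, against 4.98% of all tested genes, a difference that was not tested. Next to expA4, the gene GRMZM2G144024 had 28.7 and 2.63 FPKM in WT and hda108 mitotic anthers and was also low after meiosis, at -1.40. On the other side of expA4, GRMZM2G144109 was slightly above WT, by 0.24 at the mitotic stage and 0.38 after meiosis.

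Lists of other pathways, matched by symbol, held no member, but bz1 on the flavonoid list and vp14 on the abscisic acid list had been left out by name, and bz1 met every numeric condition. In the flavonoid and anthocyanin pathway, 3 of 12 tested genes were lower by at least 2 at the mitotic stage, where 8.12% of all tested genes were, and 0 higher, with a median of -1.14 that was -0.23 after rescaling. Of 13 sugar transport and invertase genes, 4 were lower and 1 higher, with a median of 0.24, or 1.32 after rescaling. Among 11 abscisic acid and carotenoid genes 2 were lower and 0 higher, with a median of 0.12, or 1.15 after rescaling. The median of 4 gibberellin genes was -1.39, or -0.09 after rescaling, with 1 lower and 0 higher. That of 12 starch genes was -0.16, or 1.01 after rescaling, with 1 lower and 0 higher, and that of 3 brassinosteroid genes was -0.31, or 0.87 after rescaling, with 0 either way. A difference of at least 2 was found in 1.52% of all tested genes in the higher direction. The soluble invertase gene ivr2 (GRMZM2G089836), whose product cleaves sucrose, had a mitotic difference of -2.79, with 23.6 and 14.0 FPKM after meiosis and 166 and 23.1 FPKM at the mitotic stage. It failed the rule because WT held it at a level more than 4-fold higher at the mitotic stage.

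Genes used as constant references were not all constant here. Of 8 tested housekeeping genes, 7 were below WT at the mitotic stage, against 50.7% of all tested genes. After rescaling 4 were below WT, against 20.2% of all tested genes. The median of -0.92 turned to 0.40 after rescaling. The 8 include tub4, which the rule chose for its low mitotic value. The glyceraldehyde phosphate dehydrogenase gene gpc3 (GRMZM2G071630), which acts in glycolysis, had 463 and 111 FPKM after meiosis and 726 and 232 FPKM at the mitotic stage. gpc2 (GRMZM2G180625) had 485 and 448 FPKM, then 362 and 301 FPKM, and the elongation factor gene ef1a 206 and 252 FPKM, then 143 and 171 FPKM. The actin gene act1 had 25.3 and 16.4 FPKM, then 20.6 and 15.4 FPKM.

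The genes nearest the mitotic threshold differed little from each other. Inside it lay GRMZM5G831102, with 54.4 and 8.77 FPKM in WT and hda108 mitotic anthers, then PP2C16 and GRMZM2G472696, with 101.1 and 16.8 FPKM. Outside it lay GRMZM2G322618, with 86.0 and 14.4 FPKM, GRMZM2G127035, with 25.7 and 3.73 FPKM, and AC211164.5_FG003, with 370.2 and 65.0 FPKM. Their differences ran from -2.52 to -2.49.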

How the data were processed

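The deposited values are FPKM that the authors made from ribosomal-RNA-depleted, strand-specific libraries, with a single column for each group per the file headers. Build B73 RefGen_v3 and the tools Cuffdiff 2.2.1, Cufflinks, TopHat2 2.0.13, Trimmomatic 0.33, CASAVA 1.8 and SAMtools appear in the submitters' processing notes. No source used here says how replicates were combined or groups scaled. The columns of the homozygous genotype were read as hda108, the only mutant genotype in the labels. The 24360 of 39604 genes that reached 1 FPKM in any group were tested against the size thresholds, on log2(FPKM + 1). Folds are ratios of FPKM. With 1 value per group no test or p-value was possible, and no interval or floor is given because depth is unknown.

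The members, gene lists and families were chosen with earlier results of these data known. Named in the text are members with a name, the 10 largest by level and by mitotic difference, the 5 highest after meiosis, genes nearest thresholds, and members within 100 kb of another or sharing a family. Other genes and all families were chosen after their values were seen. Names came from RefSeq genes of Zm-B73-REFERENCE-NAM-5.0, which matched 72 members. Coordinates are the deposited ones, and whether they start at 0 or 1 is not stated. Planned motif counts in promoters were not run, and no sequences were used here. Python 3.11.15, numpy 2.4.6, pandas 2.3.3 and matplotlib 3.10.9 were used.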

Additional observations from a re-analysis of the deposited data

Results flagged for a closer look

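In 6 members the pooled hda108 value lay above WT after meiosis and below it at the mitotic stage, so the genotype difference changed direction between the stages. The post-meiotic differences were 0.079 for GRMZM2G171912, 0.19 for GRMZM5G801330, 0.26 for GRMZM2G042008, 0.34 for GRMZM2G064753, 0.39 for GRMZM2G123212 and 0.72 for GRMZM2G011951. The difference between stages was not tested, since each group has 1 value, and the rule itself fixed the mitotic direction.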

How the results depend on the processing

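No paired analysis was possible because each group has 1 deposited value, and for the same reason no replicate could be left out. The number of genes meeting the rule, 100, was 12 after rescaling every group to a sum of 1000000 (3 of them members), 50 with quantile normalization (31 members) and 59 with a pseudocount of 5 (45 members). It was 247 at a mitotic threshold of -2, 33 at -3 and 30 with a post-meiotic difference above -0.5. It stayed within 1.5 times under the other settings, among them median-of-ratios scaling with 100 genes, 90 of them members, and 94 without members of doubtful loci, a setting chosen after seeing the data. The members' median mitotic difference was -1.57 after rescaling, -2.32 with quantile normalization, -2.83 with median-of-ratios scaling, -2.97 with a pseudocount of 0.1 and -2.48 with one of 5. Their post-meiotic median was -0.091, -0.23, -0.62, -0.70 and -0.58 in the same order. The share of all tested genes past the mitotic threshold, 4.98%, was 1.21% after rescaling, 2.92% with quantile normalization and 3.06% without a filter on low values. Of the 100 members, 5 had a mitotic difference of at most -2.5 after rescaling, 33 with quantile normalization, 99 with median-of-ratios scaling and 45 with a pseudocount of 5. The cause of these shifts was not tested.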
